A study of Mus musculus with 12 samples.

Results

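The genes described here sense foreign or misplaced nucleic acid, pass that signal on, or are switched on by interferon, in Neuro-2a cells transfected with small RNA. They were chosen by name: 46 symbols were listed, 41 of them were found among the 15767 genes measured, and 37 had enough counts to be tested. Rigi stood in the files under that symbol rather than its older one, Ddx58, while Ifit3, Ifitm1, Mx1 and Mx2 are not analysed here. Neuro-2a is an established mouse neuroblastoma line used as a neuron-like model, and its genotype is given as wild type. RNA was sequenced in 12 libraries: 4 from cells that received a mimic of miR-155, which stands in for the mature microRNA, 4 from cells that received an inhibitor of it and 4 from cells that received a control small RNA. The cells were transfected without serum or antibiotics, received growth medium after 4 h and were harvested on day 2. All 12 libraries thus come from cells that received a small RNA, and no untransfected library is analysed here. Each library also carries a replicate number from 1 to 4, shared across the groups, and the labels do not state what a number marks.

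Double-stranded or uncapped RNA in the cytosol is recognised by the helicases RIG-I (Rigi) and MDA5 (Ifih1), which signal through the mitochondrial adaptor MAVS to the transcription factors IRF3 and IRF7 and so to type I interferon. Secreted interferon binds the receptor chains IFNAR1 and IFNAR2, whose kinases JAK1 and TYK2 activate STAT2. STAT2 acts with IRF9 to switch on many antiviral genes, the interferon-stimulated effectors. Small RNAs delivered by transfection can themselves be ligands of these sensors in some cells, and miR-155 is best known as an immune microRNA induced by such signalling.

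Total counts ran from 60695388 to 74200532 per library. All 10 markers of the neuroblastoma line stood at or above 1 TPM (transcript level scaled for gene length and for depth), and 0 of 6 immune markers did. Libraries numbered 4 stood apart from the other 9. Between number 4 and numbers 1 to 3, edgeR called 5399 of 13014 genes, or 41.5%, and 8 of the 10 neuroblastoma markers, 7 of them lower in number 4. The summed level of those markers was 4570 to 4797 TPM in number 4, against 4896 to 5318 TPM in numbers 1 to 3. The summed immune markers were at or under 0.319 TPM in number 4 and at or under 1.30 TPM in numbers 1 to 3. Glial markers summed to 4.75 to 4.96 TPM in number 4 and 3.42 to 4.83 TPM in numbers 1 to 3, endothelial markers to 2.87 to 3.36 TPM and 1.92 to 2.90 TPM, and fibroblast markers to 6.89 to 7.35 TPM and 6.13 to 9.90 TPM, in the same order, each with 1 gene at or above 1 TPM.

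The guide strand of mouse miR-155, from the RefSeq annotation of GRCm38.p6, lies on the plus strand at chr16:84714143-84714165. It is printed with its seed, bases 2 to 8, in capitals, because the seed sets which transcripts a mimic could pair with; the labels do not give the sequence of the mimic itself.
mmu-miR-155-5p: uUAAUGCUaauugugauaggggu
Sites that pair with this seed were searched in 3' UTRs as AGCATTAA (8mer), AGCATTA (7mer-m8) and GCATTAA (7mer-A1), on the transcript strand, each UTR being placed in the longest class it held. Of the 41 members, 2 held a site, both of the weakest class, against 13.4% of 15496 genes with an annotated UTR. The sites are shown with the seed match in capitals, for Ifit2, an RNA-binding effector, for Dtx3l, an E3 ubiquitin ligase, and for Socs1, an inhibitor of JAK kinases from the wider pathway whose UTR holds an 8mer.
Ifit2: atattctctatGCATTAAgtccatcgatat
Dtx3l: tgttattatctGCATTAAataaagtcaggt
Socs1: cgctgtgccgcAGCATTAAgtgggggcgcc
The matches lie on mouse chromosomes 19, 16 and 16 in that order. In mimic against control the log2 fold change was 0.74 for Ifit2, 0.14 for Dtx3l and 0.15 for Socs1, and edgeR called none of these genes (adjusted p = 1 for each). Of the 98 pathway genes in the files, 17 were found to hold a site, where sites in genes of 1 chromosome are not analysed here. Of these 17 genes, 14 were tested. Their log2 fold changes in mimic ran from -0.38 to 0.15, with a median of 0.042, and 4 of the 14 were below 0. Socs1 had the highest value of these genes. Azi2 (0.042), Ddx41 (-0.045) and Ifit1bl1 (-0.38) also held an 8mer.

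The RNA sensors differed widely in level. Levels are given in TPM, which accounts for gene length, as the mean ± SD over all 12 libraries, and a gene is called expressed at a mean of at least 1 TPM. Adar, the deaminase that edits double-stranded RNA and so hides the cell's own RNA from MDA5, was the highest at 38.4 ± 6.85 TPM. Eif2ak2, which encodes PKR, the kinase that halts translation on binding double-stranded RNA, followed at 20.6 ± 3.47 TPM. Rigi stood at 2.42 ± 0.370 TPM, and Dhx58, which encodes the regulatory helicase LGP2, at 1.48 ± 0.393 TPM. Rigi and Dhx58 were therefore expressed at low levels, and their ranges, 1.93 to 3.13 TPM and 0.949 to 2.45 TPM, overlapped. Ifih1 lay below the expressed level at 0.436 ± 0.204 TPM, and its highest library reached 0.921 TPM.

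The endosomal and Z-nucleic acid sensors were near 0. Tlr3, the endosomal receptor of double-stranded RNA, had 35 counts over all libraries and 0 in 7 of them. Tlr7, its counterpart for single-stranded RNA, had 71 counts and 0 in 5 libraries. Zbp1, a sensor of Z-form RNA that triggers necroptosis, had 12 counts, of which 7 were in mimic 2 and 5 in mimic 4. In a single library 3 counts correspond to 0.0400 to 0.0496 CPM (a count scaled to library size), and differences in these sensors were not detectable at this depth. Of the genes for cytosolic DNA sensing, Cgas stood at 0.914 ± 0.238 TPM, Sting1, the adaptor below it, at 14.6 ± 0.902 TPM and Samhd1, which removes nucleotides and limits viruses, at 29.4 ± 2.88 TPM.

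The adaptor and the receptor were well expressed, while the inducible factor IRF7 was low. Mavs measured 33.7 ± 2.18 TPM, Irf3 18.5 ± 1.43 TPM, Stat2 17.03 ± 4.20 TPM and Irf1, a transcription factor of interferon responses, 11.6 ± 0.509 TPM. Irf9 stood lower at 4.26 ± 0.940 TPM and Irf7, itself an interferon-stimulated gene, at 0.426 ± 0.137 TPM. Irf7 shares 45 exonic bases with Phrf1 on the opposite strand, and Phrf1 averaged 118 CPM beside 1.17 CPM for Irf7. The strand setting is not given, so reads of Irf7 and Phrf1 cannot be told apart where they overlap. The receptor chain Ifnar1 was at 22.7 ± 1.42 TPM and Ifnar2 at 19.9 ± 1.58 TPM, and their ranges, 20.6 to 25.6 TPM and 17.3 to 22.4 TPM, overlapped. Jak1 reached 97.3 ± 8.15 TPM and Tyk2 7.96 ± 0.299 TPM. Of 11 interferon genes listed as ligands, 1 was in the files: Ifnz, with 37 counts over 12 libraries and 0 in 4 of them. The other 10 are not analysed here.

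Of 20 effectors in the files, 15 were expressed, and their levels were very unequal. Ifitm2, which blocks virus entry at membranes, led with 883, 1178, 846 and 1018 TPM in mimic 1 to 4, 1266, 1214, 1201 and 1021 TPM in inhibitor 1 to 4 and 1138, 1299, 1131 and 999 TPM in control 1 to 4. Its lowest libraries were mimic 1 and mimic 3. Bst2, which encodes tetherin, a protein that holds budding viruses at the cell surface, had 165, 168, 161 and 194 TPM in mimic, 162, 179, 181 and 216 TPM in inhibitor and 171, 174, 175.1 and 186 TPM in control. In each group number 4 was its highest library. Ifitm3, a relative of Ifitm2, had 146, 157, 151 and 154 TPM in mimic, 139, 153, 118 and 141 TPM in inhibitor and 136, 154, 147 and 146 TPM in control. These 3 groups overlapped, and reads of such close relatives may be shared between them.

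Ifi27, an interferon-induced mitochondrial and nuclear membrane protein, measured 74.3, 85.2, 77.5 and 84.03 TPM in mimic, 87.1, 81.2, 86.3 and 85.5 TPM in inhibitor and 76.8, 91.5, 85.2 and 77.4 TPM in control. Ifi35, an interferon-induced leucine zipper protein, had 48.6, 58.8, 51.2 and 58.7 TPM in mimic, 57.9, 50.8, 48.6 and 60.05 TPM in inhibitor and 50.6, 58.8, 56.5 and 57.04 TPM in control. Trim25, the ubiquitin ligase that activates RIG-I, had 33.4, 38.3, 35.03 and 41.9 TPM in mimic, 32.9, 37.5, 36.01 and 37.4 TPM in inhibitor and 36.4, 33.4, 35.5 and 40.5 TPM in control. The treatment groups overlapped for each of these genes. At the other end stood effectors best known as markers of an interferon response: Ifit1, which binds foreign RNA caps, averaged 0.498 TPM, Rsad2, the antiviral enzyme viperin, 0.345 TPM, Ifit2 0.254 TPM and Oas2, a synthetase that activates RNase L, 0.0305 TPM. Parp14, an ADP-ribosyltransferase, also lay under 1 TPM. The remaining 9 expressed effectors had means between 2.68 TPM for Usp18, which removes the ISG15 modifier, and 17.1 TPM for Isg15, that ubiquitin-like modifier.

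**Figure D1:**
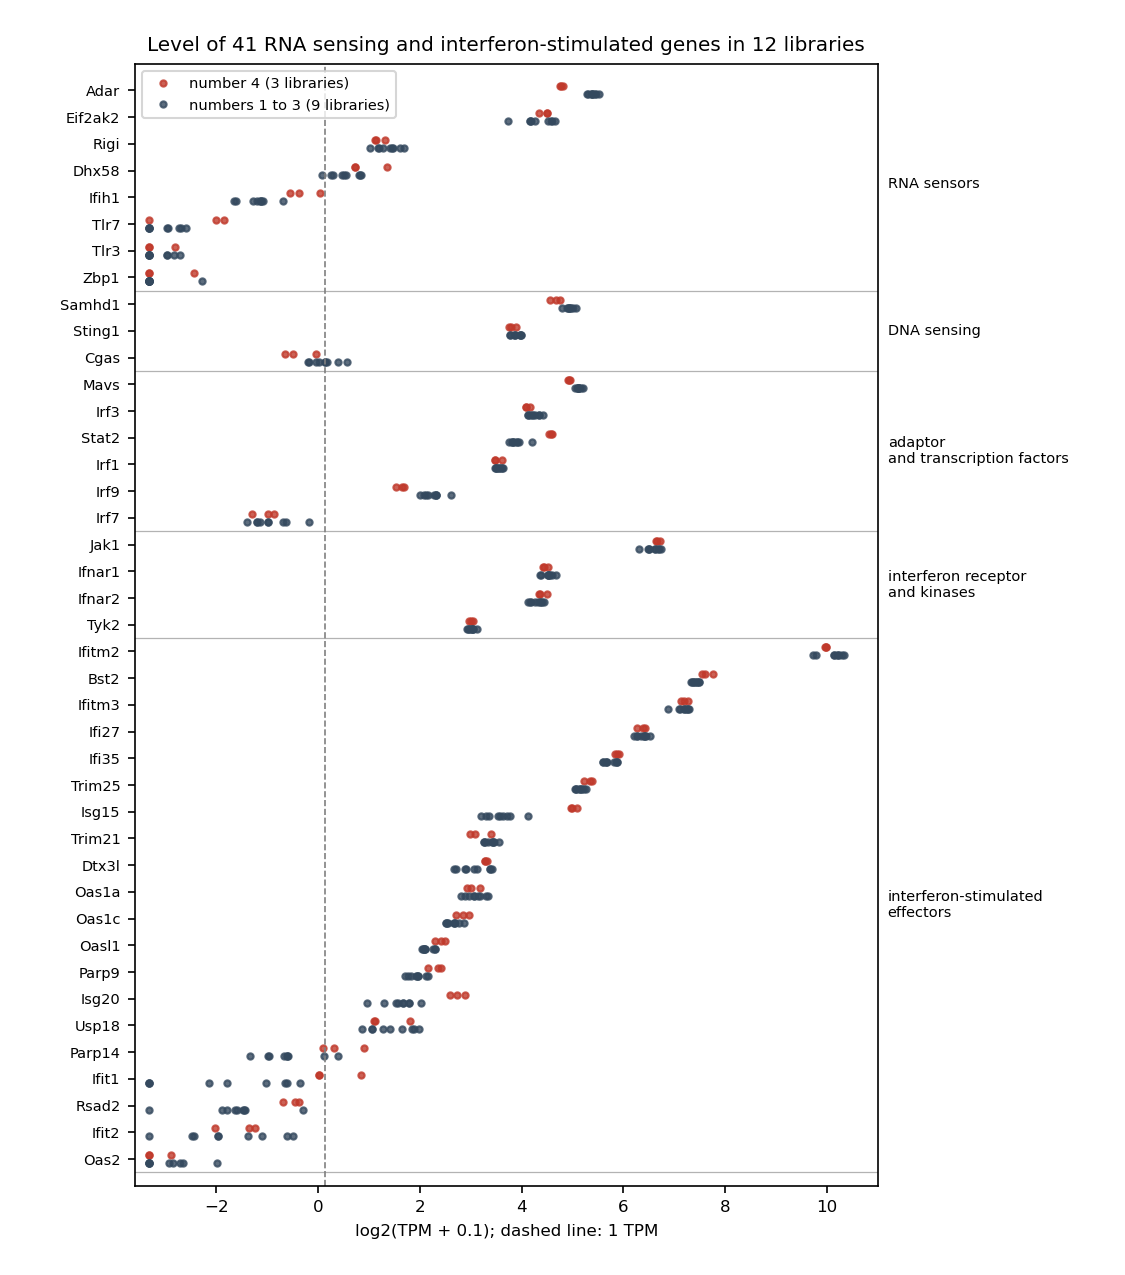
Level of each of the 41 genes in 12 libraries, as log2(TPM + 0.1) on the x axis, grouped by role down the page, with 1 point per library; red points are the 3 libraries numbered 4 and dark points the 9 numbered 1 to 3, and the dashed line marks 1 TPM. Adar is the highest RNA sensor, Tlr3, Tlr7 and Zbp1 lie at the floor, Ifitm2 is the highest gene of the set, and red and dark points separate for Isg15, Isg20, Stat2, Irf9 and Adar.

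None of the genes was called in a comparison of treatments. EdgeR called 0 of 37 members in mimic against control, in inhibitor against control and in mimic against inhibitor, where the background over all 13014 genes was 0% in each. The CPM of the groups did not overlap for 0, 1 and 0 members in those comparisons, in that order, against 0.684%, 0.645% and 0.861% of all genes. The single member was Ifnar2, which had 26.2, 25.9, 26.5 and 25.7 CPM in inhibitor and 25.1, 24.2, 24.3 and 25.7 CPM in control and is named after its values were seen (log2 fold change 0.071, unadjusted p = 0.469, edgeR adjusted p = 1). Its lowest inhibitor library and its highest control library were almost level. At an unadjusted p under 0.05 the members numbered 0, 0 and 2 in those comparisons, against 71, 67 and 77 of all genes, and DESeq2 also called 0 members. The median log2 fold change of the members was 0.012 in mimic against control, 0.015 in inhibitor against control and 0.0010 in mimic against inhibitor, beside -0.0068, -0.0099 and 0.0024 over all genes. By role, 10 of 19 effectors had a higher and 9 a lower estimate in mimic than in control, with a median of 0.0050, and of the 5 RNA sensors tested 3 were higher and 2 lower. The median standard error of a member's log2 fold change was 0.15. The treatment fit has no term for replicate number, so differences between numbers are part of that error. Without the 3 libraries numbered 4 the count was again 0 members in each comparison. Whether replicates were grown as separate cultures is not stated, so these p-values measure only the spread between libraries, which may be technical.

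The members with the smallest p show how close the groups were. Fold changes here and below compare TMM-scaled CPM. Irf3 had 35.9, 38.9, 40.2 and 37.8 CPM in mimic and 40.4, 49.3, 43.9 and 36.5 CPM in control, with overlap (log2 fold change -0.15, 95% interval -0.37 to 0.06, edgeR adjusted p = 1). Jak1 had 166, 165, 162 and 168 CPM in mimic and 165, 138, 149 and 172 CPM in control, and every mimic value lay within the range of the controls (log2 fold change 0.084, interval -0.073 to 0.24, edgeR adjusted p = 1). Irf3 shares 88 exonic bases with Bcl2l12 on the opposite strand, and whether counting used the strand is not given in the sources used here. Usp18, which also dampens signalling at the receptor, had 2.09, 1.69, 1.32 and 1.94 CPM in inhibitor and 0.942, 2.09, 1.13 and 1.17 CPM in control, an estimate of 0.40 with an interval of -0.24 to 1.04 (edgeR adjusted p = 1). Control 2 was about level with the highest inhibitor library of Usp18, so the groups overlapped.

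Parp9 and Parp14, ADP-ribosyltransferases of the interferon response, had lower estimates in inhibitor than in control. Parp9, the partner of Dtx3l in an enzyme complex, had 6.48, 6.40, 6.01 and 8.35 CPM in inhibitor and 8.05, 7.51, 7.17 and 9.37 CPM in control (log2 fold change -0.24, interval -0.57 to 0.10, edgeR adjusted p = 1). In mimic Parp9 had 6.83, 7.83, 7.01 and 10.1 CPM, which gave 0.22 against inhibitor (interval -0.12 to 0.56, edgeR adjusted p = 1). Parp14 had 1.13, 0.763, 0.570 and 2.23 CPM in inhibitor and 1.82, 1.07, 1.07 and 3.36 CPM in control, with an interval that ran from -1.73 to 0.44 around -0.64 (edgeR adjusted p = 1). For both genes the inhibitor and control libraries overlapped, and number 4 was the highest library of each of these groups. At each of the 4 numbers the inhibitor library of both genes was below the control library, though the numbers were not taken to pair the libraries. Parp9 and Dtx3l share 458 exonic bases on opposite strands. Ifit2 had 7, 30, 30 and 13 counts in mimic and 4, 0, 4 and 15 counts in inhibitor, and its log2 fold change of 1.69 had an interval of 0.0046 to 3.38 (unadjusted p = 0.0495, edgeR adjusted p = 1). The counts of Ifit2 overlapped between these groups.

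Ifitm2, the most abundant member, came nearest to a difference. It had 87.9, 119.9, 88.5 and 109 CPM in mimic, 137, 125, 126 and 108 CPM in inhibitor and 115, 144, 119 and 104 CPM in control. The log2 fold change was -0.29 in mimic against inhibitor (interval -0.56 to -0.021, unadjusted p = 0.0365) and -0.25 in mimic against control (interval -0.52 to 0.018, unadjusted p = 0.0648), each with an edgeR adjusted p of 1. Gm45717, an annotated gene that shares 268 exonic bases with Ifitm2 on the same strand, had 30.4 CPM in mimic 1 and 35.5 CPM in mimic 3, the libraries where Ifitm2 was lowest. In the other 10 libraries it lay between 0.142 and 1.04 CPM. When the counts of both genes were summed, a step chosen after seeing the data, the log2 fold change was -0.075 in mimic against inhibitor and -0.039 in mimic against control. The sum averaged 118 ± 6.22 CPM in mimic, 124 ± 11.8 CPM in inhibitor and 121 ± 17.1 CPM in control (SD, n = 4 each).

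**Figure D2:**
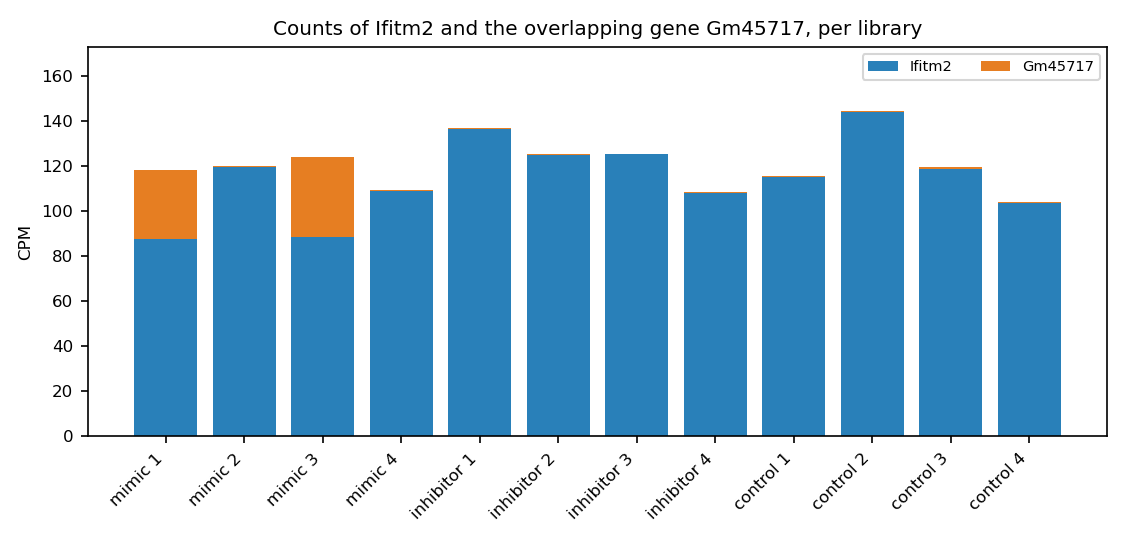
CPM of Ifitm2 (blue) and of the overlapping gene Gm45717 (orange, stacked on it) in each library on the x axis. Gm45717 is visible at 30.4 CPM in mimic 1 and 35.5 CPM in mimic 3, and the stacked height of those bars, 118 and 124 CPM, lies within the range of the other libraries.

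By replicate number these genes differed at a rate near that of all genes. In a test over all 4 numbers, with treatment in the model, edgeR called 10 of 37 members (27.0%), against 27.3% of all genes (3547 of 13014). Without the 3 libraries numbered 4, a setting added after seeing the data, 0 members and 0 genes were called between numbers 1, 2 and 3, with 119 genes at an unadjusted p under 0.05. Number 4 was then set against the mean of numbers 1 to 3, a contrast chosen with earlier results of these data known. The labels do not state what a number marks, so libraries of the same number may share an origin. The standard errors and p-values by number, here and below, therefore measure only the spread between libraries within numbers. For this contrast edgeR called 14 of 37 members (37.8%), against 41.5% of all genes. Of the members 10 were higher and 4 lower in number 4, where 20.4% of all genes were higher and 21.1% lower. The CPM of number 4 did not overlap that of the other numbers for 13 members, 9 of them higher, or 35.1%, against 36.9% of all genes. The count of 10 was 4 without inhibitor 4, 5 without control 3, mimic 4 or inhibitor 3, and 6 without control 4 or mimic 3, and the count of 14 was 9 without inhibitor 4. The lower neuroblastoma marker sum in number 4 moves with each of these values, as do the glial and endothelial sums, whose ranges overlapped, and their part in them was not tested.

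Among the effectors, 8 of 19 were called in number 4, or 42.1%, against 41.5% of all genes. With both directions counted, that share is at the background. All 8 were higher, where 20.4% of all genes were called higher and 21.1% lower. The median log2 fold change was 0.24 over the list beside -7.05e-05 over all genes. Isg15 had 3.64, 3.87 and 3.49 CPM in mimic 4, inhibitor 4 and control 4, against 1.02 to 2.08 CPM (median 1.33) in numbers 1 to 3 (log2 fold change 1.46 ± 0.15 (SE), edgeR adjusted p = 3.59e-05). Every number 4 library of Isg15 stood above the other 9. Isg20, an exonuclease that degrades single-stranded RNA, had 6.43, 5.12 and 5.57 CPM in mimic 4, inhibitor 4 and control 4, against 1.56 to 3.38 CPM (median 2.60) (log2 fold change 1.19 ± 0.14 (SE), edgeR adjusted p = 7.87e-05), again without overlap. The folds were 2.76 for Isg15 and 2.28 for Isg20, and both calls held without any single library.

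Parp14 had 1.90, 2.23 and 3.36 CPM in the number 4 libraries of mimic, inhibitor and control, against 0.570 to 2.27 CPM (median 1.07) in the others (log2 fold change 1.15 ± 0.28 (SE), edgeR adjusted p = 0.00716). Mimic 2 lay within the number 4 range, and the call was lost without control 4 (log2 fold change 1.04, edgeR adjusted p = 0.0595) or inhibitor 4 (0.98, edgeR adjusted p = 0.0651). Parp9 had 10.1, 8.35 and 9.37 CPM in mimic 4, inhibitor 4 and control 4, against 6.01 to 8.05 CPM (median 7.01) (log2 fold change 0.40 ± 0.083 (SE), edgeR adjusted p = 0.00287). Bst2 had 38.2, 42.2 and 35.5 CPM in those libraries, against 30.2 to 35.5 CPM (median 32.3) in numbers 1 to 3 (log2 fold change 0.24 ± 0.06 (SE), edgeR adjusted p = 0.00804). Control 4 and the highest of the other libraries of Bst2 were almost level, and the call was lost without mimic 4 (log2 fold change 0.20, edgeR adjusted p = 0.0698) or inhibitor 4 (0.19, edgeR adjusted p = 0.0924). Trim25 had 86.3, 76.3 and 80.8 CPM in number 4 and 63.9 to 74.9 CPM (median 71.3) in numbers 1 to 3 (log2 fold change 0.20 ± 0.056 (SE), edgeR adjusted p = 0.0165), a call that was lost without control 4 (0.20, edgeR adjusted p = 0.0646) or mimic 4 (0.14, edgeR adjusted p = 0.142).

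The widest folds belonged to effectors with few reads. Ifit1 had 24, 25 and 48 counts in mimic 4, inhibitor 4 and control 4, against 0 to 18 counts in the other 9 libraries, which is 0.397, 0.392 and 0.711 CPM against 0 to 0.275 CPM (median 0.0807) (log2 fold change 2.62 ± 0.87 (SE), edgeR adjusted p = 0.0319). Ifit1 was at 0 in control 1, control 2 and inhibitor 3, and its call was lost without control 1 (log2 fold change 2.22), control 4 (1.50), mimic 1 (2.71), mimic 3 (2.70), inhibitor 3 (2.49) or inhibitor 4 (3.10). Rsad2 had 52, 45 and 60 counts in mimic 4, inhibitor 4 and control 4, against 0 to 66 counts in the others (log2 fold change 1.54 ± 0.56 (SE), edgeR adjusted p = 0.0471). Mimic 2 was the highest library of Rsad2, and its call was lost without control 3 (1.64), control 4 (0.93), mimic 1 (1.60), mimic 3 (1.51), mimic 4 (1.90), inhibitor 2 (1.47), inhibitor 3 (1.54) or inhibitor 4 (1.77). With a library left out, the edgeR adjusted p reached 0.281 for Ifit1 and 0.337 for Rsad2, each without control 4, where the fold was also lowest. Without the other libraries named, the log2 fold change was 2.22 to 3.10 for Ifit1 and 1.47 to 1.90 for Rsad2, and both calls lay near the threshold. The other 11 effectors tested did not pass, with log2 fold changes from -0.21 for Trim21, a ubiquitin ligase that binds antibodies in the cytosol, to 0.43 for Ifit2.

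Sensors and transcription factors differed in both directions. Ifih1 had 1.42, 1.63 and 2.19 CPM in mimic 4, inhibitor 4 and control 4, against 0.525 to 1.20 CPM (median 0.845) in numbers 1 to 3, without overlap (log2 fold change 1.11 ± 0.24 (SE), edgeR adjusted p = 0.00367). Stat2 had 53.99, 55.1 and 54.4 CPM in the same libraries, against 30.4 to 40.5 CPM (median 33.9) (log2 fold change 0.70 ± 0.066 (SE), edgeR adjusted p = 1.97e-05). Its 3 number 4 libraries lay close together and above all others. Irf9, the partner of STAT2, was lower in number 4, with 6.30, 6.96 and 6.62 CPM against 8.59 to 12.9 CPM (median 10.2) (log2 fold change -0.62 ± 0.12 (SE), edgeR adjusted p = 0.00201). Stat2 and Irf9 thus stood on opposite sides, and Irf9 shares 123 exonic bases with Rnf31 on the same strand, a gene that did not pass (log2 fold change -0.097, edgeR adjusted p = 0.301). Of the other transcription factors, Irf1 had a log2 fold change of -0.0047, Irf3 -0.11 and Irf7 -0.11, and edgeR called none of them.

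Adar had the smallest p of the set in this contrast, with 109, 102 and 103 CPM in mimic 4, inhibitor 4 and control 4, against 150.2 to 165 CPM (median 158) in numbers 1 to 3, without overlap (log2 fold change -0.59 ± 0.045 (SE), edgeR adjusted p = 4.95e-06). Chrnb2, a nicotinic acetylcholine receptor subunit gene that shares 1365 exonic bases with Adar on the opposite strand, had a log2 fold change of -0.59 too (edgeR adjusted p = 4.31e-05). Since the strand setting is not given, reads of Adar and Chrnb2 cannot be told apart where they overlap. Samhd1 had 77.6, 71.5 and 80.2 CPM in number 4 and 87.5 to 96.1 CPM (median 92.1) in numbers 1 to 3 (log2 fold change -0.26 ± 0.055 (SE), edgeR adjusted p = 0.00369). Mavs had 48.4, 47.6 and 47.9 CPM against 50.0 to 59.7 CPM (median 53.6) (log2 fold change -0.17 ± 0.059 (SE), edgeR adjusted p = 0.0382), also without overlap. The Mavs call was lost without control 3 (log2 fold change -0.18), control 4 (-0.17), mimic 1 (-0.18), mimic 3 (-0.16), mimic 4 (-0.21) or inhibitor 4 (-0.15), with an edgeR adjusted p of up to 0.183. The receptor and kinase genes did not pass, with log2 fold changes from -0.039 for Ifnar1 to 0.13 for Jak1, whose number 4 libraries did not overlap the others, and neither did Rigi (-0.17), Dhx58 (0.47), Eif2ak2 (0.14), Cgas (-0.56) or Sting1 (-0.067).

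**Figure D3:**
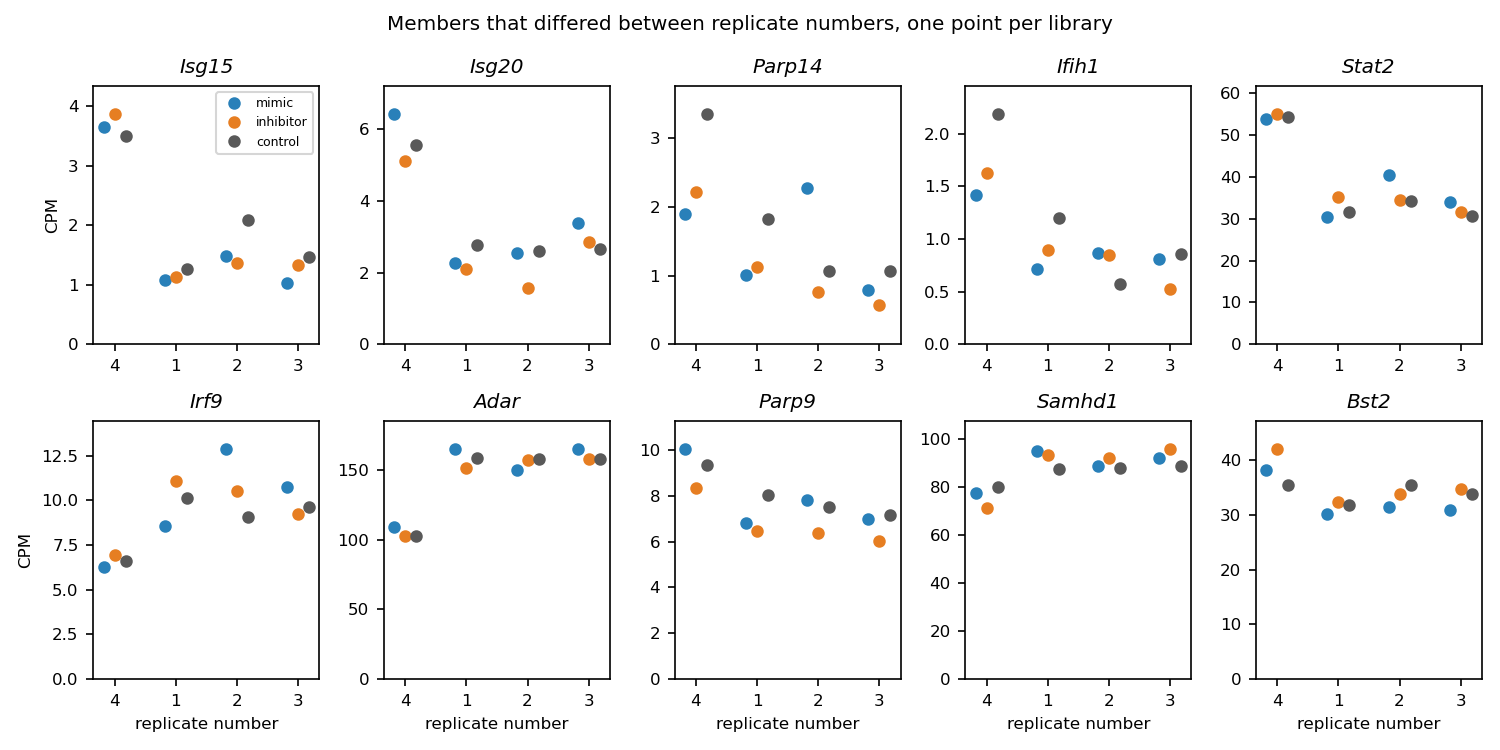
CPM of the 10 genes called in the test over all 4 replicate numbers, with 1 panel per gene, the replicate number on the x axis and 1 point per library coloured by treatment; each y axis starts at 0. The 3 number 4 points stand above the rest for Isg15, Isg20, Ifih1, Stat2, Parp9 and Bst2 and below them for Irf9, Adar and Samhd1, while mimic 2 reaches the number 4 range for Parp14.

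**Figure D4:**
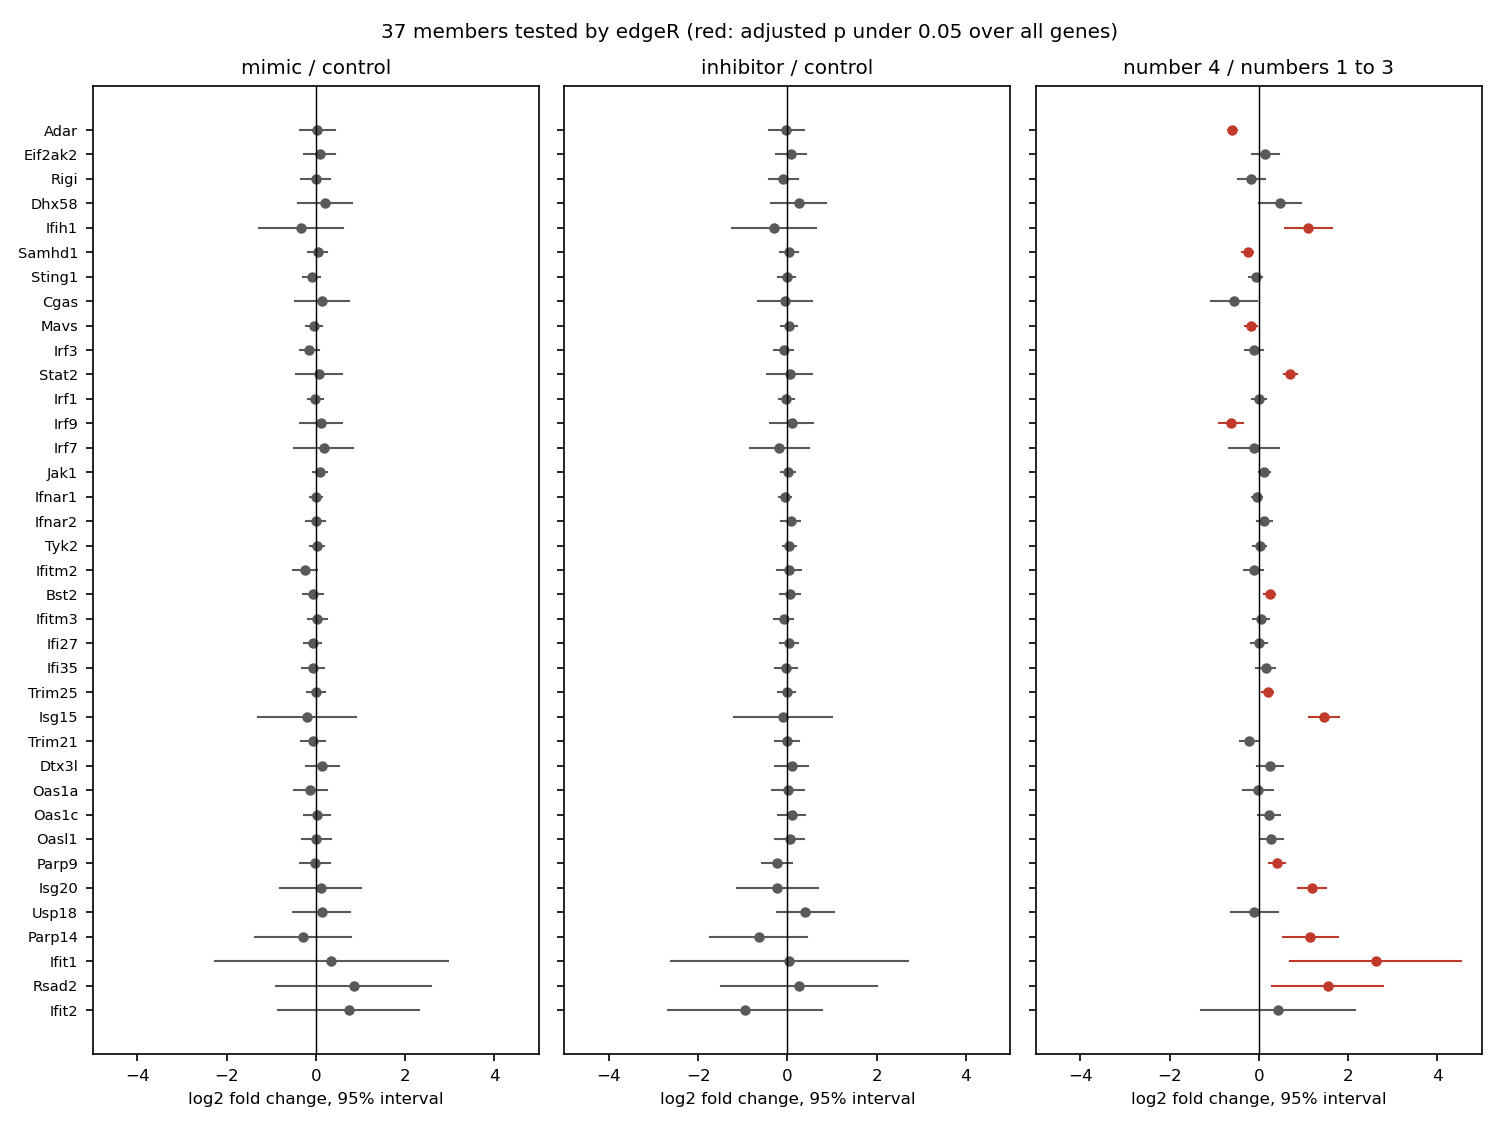
Log2 fold change with its 95% interval for the 37 genes tested by edgeR, in mimic against control, inhibitor against control and number 4 against numbers 1 to 3; red marks an adjusted p under 0.05 over all genes. No gene is red in the treatment panels, and 14 are red in the panel of number 4, 10 to the right of 0 and 4 to the left.

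Promoter sequence was read for the members because IRF9, acting with STAT2, binds a repeat of the GAAA kind, the interferon-stimulated response element. RefSeq windows of 300 bases around annotated transcription starts (GRCm38.p6) were found for 32 members and searched on both strands for GAAANNGAAA, where overlapping matches were kept. The motif stood in 13 of the 32 members, or 40.6%, against 3.55% of the 12098 genes in the files that have such a window and 3.44% of all windows. The members were chosen as genes of this response, so that share describes the choice. Of the 8 members higher in number 4 with a window, 6 held the motif: Isg15, Ifit1, Rsad2, Stat2, Ifih1 and Bst2. It was in 0 of the 4 that were lower, Adar, Samhd1, Mavs and Irf9, and in 7 of 19 tested members that were not called. Other spacings were not searched. Windows of Adar (gaaacgaaa) and of Ifi35 (gaaatgaaa), which was not called, hold repeats with a shorter gap that the pattern does not match. The matches are a description of the letters in a window and were not tested against the fold changes.

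The windows of Isg15, Ifit1 and Stat2 are printed 5′ to 3′ on the strand of the gene, with motif matches in capitals, to show how the arrangement differs between members that were higher in number 4. That of Isg15 is chr4:156200769-156201068 on the minus strand, that of Ifit1 chr19:34640639-34640938 on the plus strand and that of Stat2 chr10:128270248-128270547 on the plus strand.
Isg15: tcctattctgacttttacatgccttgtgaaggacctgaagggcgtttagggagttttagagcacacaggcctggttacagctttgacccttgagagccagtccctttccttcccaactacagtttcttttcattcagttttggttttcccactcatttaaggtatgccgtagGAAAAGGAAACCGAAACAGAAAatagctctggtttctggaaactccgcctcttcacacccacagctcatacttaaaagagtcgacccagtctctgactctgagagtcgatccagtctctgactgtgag
Ifit1: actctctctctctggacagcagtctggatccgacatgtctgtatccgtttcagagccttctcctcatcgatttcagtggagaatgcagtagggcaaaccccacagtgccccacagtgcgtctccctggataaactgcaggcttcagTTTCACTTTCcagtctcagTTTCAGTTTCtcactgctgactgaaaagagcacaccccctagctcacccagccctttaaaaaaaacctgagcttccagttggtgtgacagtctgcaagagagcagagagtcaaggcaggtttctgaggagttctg
Stat2: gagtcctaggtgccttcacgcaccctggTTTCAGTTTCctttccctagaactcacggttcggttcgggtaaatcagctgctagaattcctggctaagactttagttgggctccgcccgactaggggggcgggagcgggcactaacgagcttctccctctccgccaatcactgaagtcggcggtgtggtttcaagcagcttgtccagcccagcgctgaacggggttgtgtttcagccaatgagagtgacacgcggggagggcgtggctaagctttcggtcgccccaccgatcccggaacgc
Isg15 has 3 overlapping matches on the gene's strand, which begin 78, 72 and 66 bases before the start. Ifit1 has 2 separate matches on the opposite strand, at 104 and 85 bases before it. Stat2 has 1 match on the opposite strand, 222 bases before the start, farther out than those of Isg15 and Ifit1.

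The wider pathway was read from lists of 123 other genes, of which 98 were in the files and 80 were tested. EdgeR called 0 of the 80 in each treatment comparison. In number 4 it called 34, or 42.5%, against 41.5% of all genes. Of the 34, 24 were higher and 10 lower, where 20.4% of all genes were higher and 21.1% lower. In sensor signalling 12 of 20 (60.0%) were called, 6 in each direction. Dhx9, an RNA helicase that resolves double-stranded RNA, had 406 to 425 CPM in number 4, against 217 to 333 CPM in numbers 1 to 3 (log2 fold change 0.69, edgeR adjusted p = 0.000119). Prkra, which encodes the PKR activator PACT, had 54.2 to 57.4 CPM in number 4 and 39.0 to 44.5 CPM in the others (0.40, edgeR adjusted p = 0.000186). Ticam1, the adaptor of TLR3, had 16.0 to 18.3 CPM against 10.0 to 13.3 CPM (0.58), and Irak1, a kinase below Toll-like receptors, 110.3 to 117 CPM against 125 to 135 CPM (-0.20). The libraries of these 4 genes did not overlap between number 4 and the others.

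Among genes that remove or mark nucleic acid, 2 of 9 were called, or 22.2%, below the 41.5% of all genes. Both were higher. They were Adarb1, a relative of Adar that also edits RNA, with 40.4 to 42.3 CPM in number 4 and 31.4 to 35.3 CPM in numbers 1 to 3 (log2 fold change 0.29, edgeR adjusted p = 0.00132), and Xrn1, an exonuclease of decapped mRNA, with 53.2 to 60.03 CPM in number 4 and 30.04 to 49.2 CPM in the others (0.50, edgeR adjusted p = 0.00605). Adar and Adarb1 thus stood on opposite sides. Pnpt1, a mitochondrial RNA exonuclease, had a log2 fold change of 0.20 and Skiv2l, a helicase of the cytosolic exosome, 0.18, and neither passed. In interferon signalling 3 of 10 were called, or 30%, against 41.5% of all genes: the inhibitors Socs3 (0.36, edgeR adjusted p = 0.0393) and Socs1 (0.39, edgeR adjusted p = 0.0213) were higher and the phosphatase Ptpn11 (-0.24, edgeR adjusted p = 0.00264) was lower. Ptpn2, another phosphatase of this pathway, had -0.068 and did not pass.

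Of the other interferon-stimulated genes, 17 of 42 were called in number 4, or 40.5%, which is near the 41.5% of all genes. Of these 14 were higher and 3 lower, where 20.4% of all genes were higher and 21.1% lower. Those of smallest p in the test over all numbers stood on both sides. Irgm2, an immunity-related GTPase, had 4.72 to 6.13 CPM in number 4 and 8.93 to 13.5 CPM in numbers 1 to 3 (log2 fold change -1.10, edgeR adjusted p = 2.71e-05). Tor3a, an interferon-induced ATPase, had 63.9 to 69.8 CPM in number 4 and 89.3 to 109 CPM in the others (-0.59, edgeR adjusted p = 4.10e-05). Tapbp, which encodes the peptide-loading factor tapasin, was higher, with 106 to 112 CPM in number 4, against 71.3 to 85.6 CPM (0.50, edgeR adjusted p = 5.90e-05). H2-K1, a class I heavy chain, was also higher, with 505 to 532 CPM in number 4, against 340.2 to 425 CPM (0.50, edgeR adjusted p = 9.62e-05). None of these 4 genes overlapped between number 4 and the other libraries.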

How the data were processed

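RNA from 12 libraries of Neuro-2a cells, 4 per treatment, was measured. The authors deposited whole-number read counts per gene, not normalized, and TPM values, which share 1 total across libraries. The tools named per the submitters' processing notes are edgeR, StringTie, featureCounts, STAR and fastp, with the build GRCm39. Their versions and roles, the annotation and the strand setting are not stated there. How reads were divided between overlapping genes could therefore change a count.

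The set, the lists, the named-gene rule and the number 4 contrast were chosen with earlier results of these data known. The test on counts was that of edgeR 4.0.16 under R 4.3.3 (TMM scaling, filterByExpr, leaving 13014 genes, robust quasi-likelihood fit, two-sided, Benjamini-Hochberg adjustment over all genes, called under 0.05). Treatment contrasts used a fit with group over all 12 libraries, and number tests a fit with group and number. The scripts were tested on simulated data. Values per library are given for up to 3 members of smallest p per treatment contrast, up to 10 called over all numbers by fold change, and the 6 effectors of highest TPM, and up to 4 genes are named per pathway list; Mavs, Ifit1, Rsad2 and Trim25 are given as the other members called in number 4. Alternatives were RLE and upper-quartile scaling, DESeq2 1.42.0, no filter, limma 3.58.1 on log2(TPM + 1) or log2(TPM + 0.1), a replicate block, number without group, and libraries left out.

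Total counts of 60695388 to 74200532 per library set the precision, and floors of 3 counts cover counting error only. Library pairs of a group gave chi-square values per degree of freedom from 20.2 to 233, so 0 pairs were counted as 1 library. Overlapping exons and 3' UTRs came from GENCODE M21 on GRCm38, which differs from the authors' build, so positions are given only for RefSeq sequences of GRCm38.p6.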

Additional observations from a re-analysis of the deposited data

Results flagged for a closer look

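Values per library of 22 named genes were checked for a library far from the others in 88 groups (each treatment group, and the 9 libraries numbered 1 to 3), and 15 groups held one, where chance flags about 1 in 20. Of these 12 were libraries numbered 4 within their treatment group, but 14 of the 22 genes were named because they were called in number 4, so the chance rate is no measure for them. Isg15 stood at 3.87 CPM in inhibitor 4, against 1.13 to 1.36 in the other inhibitor libraries, and Isg20 at 5.57 CPM in control 4, against 2.61 to 2.78 in the other controls. Stat2 was far from the rest in inhibitor 4 (55.2 CPM) and in control 4 (54.4 CPM). Low libraries were Adar in inhibitor 4 (102.5 CPM) and control 4 (102.9 CPM) and Samhd1 in inhibitor 4 (71.5 CPM) and control 4 (80.2 CPM). Bst2 was high in mimic 4 (38.2 CPM), Trim25 in control 4 (80.8 CPM), Rsad2 in inhibitor 4 (0.705 CPM) and Ifit1 in control 4 (0.711 CPM).

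Among the libraries numbered 1 to 3, 3 stood out: Isg15 in control 2 (2.08 CPM, others 1.02 to 1.48), Rsad2 in mimic 2 (0.938 CPM, others 0 to 0.363) and Stat2 in mimic 2 (40.5 CPM, others 30.4 to 35.2).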

How the results depend on the processing

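The members called numbered 0 in each treatment comparison under every alternative run, with libraries left out included. Over all genes, DESeq2 called 3 in mimic against control, 1 in inhibitor against control and 6 in mimic against inhibitor; leaving out single libraries gave 0 to 1 in mimic against control and in mimic against inhibitor. The 10 members called over all numbers became 4 to 13 and the 3547 genes 1807 to 5884 when single libraries were left out, and both were 0 without the 3 libraries numbered 4. The 14 members called in number 4 became 9 to 17. Of 455 other values of single genes, 426 kept their direction and side of the threshold and 29 lost the call, all 29 in number 4 and 26 of them with a library left out; the others were Ifit1 (adjusted p = 0.0673) and Rsad2 (0.0546) without the filter and Rsad2 (0.0678) without the group term. The log2 fold change of Ifit2 in mimic against inhibitor ran from 0.32 to 2.90, and the cause was not tested.

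The replicate block called 0 members and 0 genes in each treatment comparison. With it the unadjusted edgeR p of Parp9 was 0.0214 in inhibitor against control and 0.0356 in mimic against inhibitor, beside 0.150 and 0.180 without it. That of Ifitm2 was 0.0346 in mimic against control and 0.0150 in mimic against inhibitor, beside 0.0648 and 0.0365. The edgeR adjusted p with the block was 0.9998 or 0.9999 for each. Deviations of same-numbered libraries correlated at -0.071 to 0.476, -0.070 to 0.526 and 0.035 to 0.444 in the 3 pairs of groups. In those pairs 2, 2 and 3 of 4 values were above 0.1, and the highest was that of number 4 each time. Not every library correlated best with its own number, so the numbers were not taken to pair the libraries. The main treatment fit has no term for number, so the difference of number 4 is part of its spread. Few counts limit Ifit1, Ifit2, Rsad2, Tlr3, Tlr7, Zbp1 and Oas2.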
